A study of Rattus norvegicus with 8 samples.

Results

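Cells meet misfolded protein with a pair of linked gene programmes. In the cytosol, heat shock factor 1 (HSF1) is released when chaperones are drawn off by damaged protein and switches on the heat shock genes, among them the Hsp70, Hsp90 and small heat shock proteins. In the endoplasmic reticulum (ER), the sensors IRE1, ATF6 and PERK start the unfolded protein response (UPR), which raises ER chaperones, oxidative folding enzymes and the machinery that returns failed proteins to the cytosol for degradation. Macrophages carry a steady secretory and lysosomal load, and ER folding capacity is part of how they sustain it. The genes described here are 44 members of these programmes out of 23487 genes in the count table. They were chosen by their place in these pathways with the CNT-7 to CNT-T contrast of the same rats already known, so their differences between the particles are given as a description, with no test of the set. Calls come from the fit of all genes and are part of that description, and no adjusted p of a member is printed.

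Peritoneal macrophages were isolated by cell sorting from Wistar rats, 8 weeks old, 15 days after intraperitoneal injection of multiwalled carbon nanotubes. The rats had received CNT-7 (MWCNT-XNRI-7), a needle-like and mesotheliomagenic nanotube (4 rats, numbered 3, 5, 10 and 11), or CNT-T, a tangled nanotube that is not mesotheliomagenic (4 rats, numbered 1, 2, 12 and 13). Each rat gave a single library. Rats without particles were not analysed here, so every difference is between the particles and none is against the resting state. Total estimated counts were 27394995 to 30215063 in CNT-7 rats and 27195157 to 33732981 in CNT-T rats (p = 0.286, two-sided, by exact permutation over the 8 libraries), and CNT-T rat 13 had the lowest total. In bulk RNA, fewer cells of a type and less RNA per cell cannot be told apart.

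All 9 macrophage markers were present, and their summed level was 15512 to 22446 CPM in CNT-7 rats and 24316 to 34431 CPM in CNT-T rats (counts per 1000000, on TMM-normalized library sizes), led by Lyz2 at 12197 to 30098 CPM. The groups did not overlap, and 5 of the 9 were called lower in CNT-7 (Cd163, Adgre1, Fcgr1a, Cd68 and Csf1r), with Cd163 at -1.69 ± 0.22 and Adgre1 at -1.13 ± 0.12 in log2 fold change (SE), while Cd14 was called higher. Plasma cells are the classical users of the UPR. The plasma cell list summed to 38.5 to 71.0 CPM in CNT-7 and 9.85 to 21.3 CPM in CNT-T over 7 genes, nearly all of it Irf4, which macrophages also express. Without Irf4 the sum was 0.363 to 2.58 CPM. B cell markers (4 of 5 analysed, most abundant Cd79b) summed to at most 2.78 CPM and T cell markers (5, most abundant Cd2) to at most 6.73 CPM, both in CNT-7 rat 5. Irf4 and Cd2 were called higher in CNT-7. Mast cell markers (6, most abundant Cpa3) reached 2.31 CPM and mesothelial markers (6, most abundant Krt8, with Upk3b and Wt1 at 0 in every rat) 0.838 CPM. Eosinophil markers (5, with Epx and Prg3 at 0 in every rat) reached 9.33 CPM in CNT-7 rat 3, almost all of it Ccr3, and at most 0.670 CPM elsewhere. Neutrophil markers (7, most abundant Csf3r, with Mpo at 0 in every rat) summed to 25.0 to 68.0 CPM. A count of 0 allowed up to 3 counts, or 0.0887 to 0.109 CPM depending on the rat.

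Of the 44 members, 42 passed the filter on low counts. Most of them lay close to the same level in both groups. Fold changes are given as log2 of the CNT-7 to CNT-T ratio, and the value was between -0.5 and 0.5 for 40 of the 42, and its 95% confidence interval lay within a 2-fold change either way for 39. The 3 exceptions were Hspa1b, Hspb1 and Hsph1, whose intervals were wide. Of all 12124 genes tested, 9602 had a value between -0.5 and 0.5, and 9405 an interval within a 2-fold change. Among the members, 14 values were above 0 and 28 below, with a median of -0.093, beside a median of 0.0083 over the 12124 genes tested. Unless another setting is named, a call is that of edgeR with TMM and the count filter on all 8 rats. At an adjusted p under 0.10, 1 member was called higher in CNT-7 (Xbp1; 13.9% of all genes tested were called higher) and 3 were called lower (Fkbp4, Stip1 and Pdia6; 14.0% of all genes tested were called lower). DESeq2 called 9 of the 42 members, 8 of them lower, and 30.0% of all genes tested. An unadjusted p under 0.05 was found for 7 members, beside 33.2% of all genes tested. The groups did not overlap for 3 members (Fkbp4, Pdia6 and Xbp1), beside 24.9% of all genes tested. The 5 macrophage markers called lower, all 14 cell cycle genes, Egr1 and S100a8 of the neutrophil list moved in the direction of the members called lower. Cd14, Irf4, Cd2 and 7 of 9 immediate early genes were called higher, the direction of Xbp1. Of the 9 macrophage markers 3 were above 0 and 6 below, and of 4 neutrophil genes tested 2 were above and 2 below. The part of these genes in the result was not tested.

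**Figure D1:**
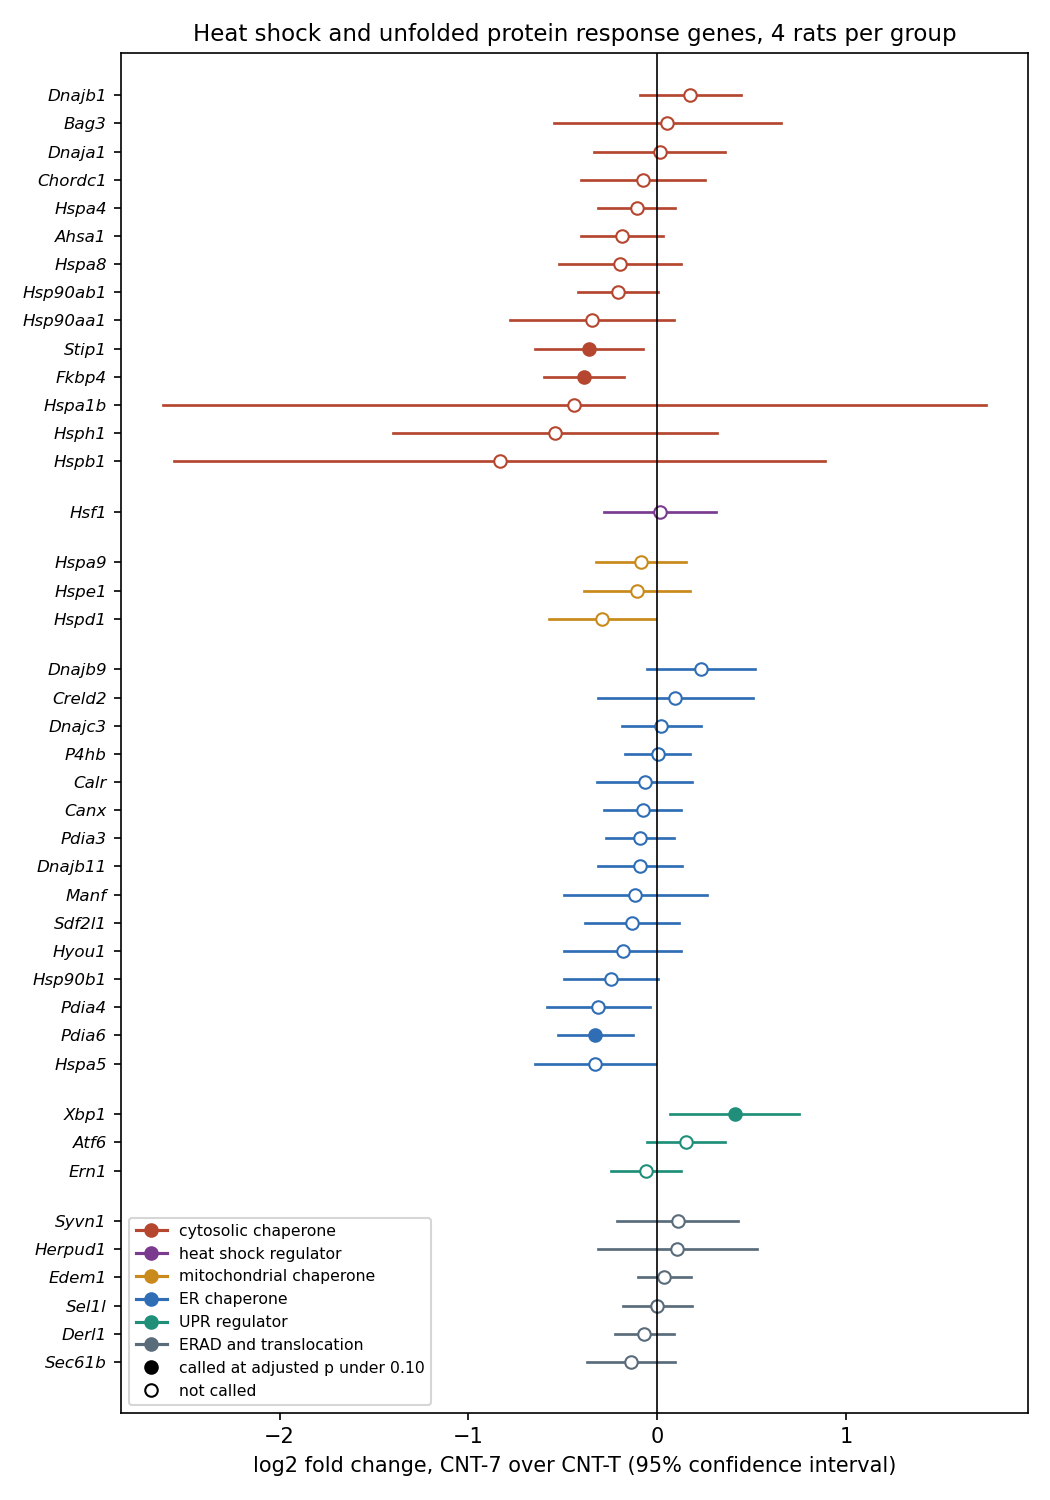
Log2 of the CNT-7 to CNT-T ratio with its 95% confidence interval for each of the 42 members tested, 4 rats per group, ordered by class. Filled points are the 4 called members, Xbp1 to the right of 0 and Fkbp4, Stip1 and Pdia6 to the left, and the widest intervals belong to Hspa1b, Hspb1 and Hsph1.

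The cytosolic chaperones form the classical heat shock group. Of 16 such members, 14 were tested, 3 with values above 0 and 11 below, and their median log2 fold change was -0.20. Without CNT-T rat 13 that median was -0.074. Of the 14, edgeR and DESeq2 called 0 higher in CNT-7, beside 13.9% of all genes tested called higher by edgeR. By edgeR 2 were called lower, beside 14.0% of all genes tested. DESeq2 called 3 lower (30.0% of all genes called in either direction), and 2 had an unadjusted p under 0.05 (33.2% of all). With no filter on low counts, edgeR called Hspa4l higher, at 0 to 9 counts per rat.

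Hspa1b, Hspb1, Hsph1 and Bag3 varied more within the groups than between them. Hspa1b encodes the inducible Hsp70, which is scarce in unstressed cells and climbs steeply on heat shock. Its level in CNT-7 rats 3, 5, 10 and 11 was 47.5, 183, 78.4 and 97.7 CPM. In CNT-T rats 1, 2, 12 and 13 it was 36.3, 59.6, 7.32 and 448 CPM. CNT-T rat 13 thus held the highest value of the 8 and CNT-T rat 12 the lowest, 61.2-fold apart, with all 4 CNT-7 rats in between. Between the particles the log2 fold change was -0.44 ± 0.97 (SE), with a 95% interval of -2.62 to 1.74, and it was 1.56 without CNT-T rat 13. It was -0.20 and -0.89 without CNT-7 rats 3 and 5, and -0.76, -0.69 and -0.84 without CNT-T rats 1, 2 and 12. Hspa1a, a near-identical gene, was not analysed here, and the estimated counts of Hspa1b may hold reads of both, so its level is uncertain.

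Hspb1, a small heat shock protein (Hsp27) that holds unfolding proteins in a soluble state, held a similar order of rats. CNT-7 rats had 5.72, 12.7, 10.0 and 8.83 CPM and CNT-T rats 4.27, 10.9, 2.67 and 48.7 CPM. Again CNT-T rat 13 was the highest and CNT-T rat 12 the lowest, 18.2-fold apart, with the CNT-7 rats in between. Its log2 fold change was -0.84 ± 0.77, and 0.64 without CNT-T rat 13.

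Hsp90aa1, the stress-inducible cytosolic Hsp90, stood at 602, 680.2, 792 and 739 CPM in CNT-7 rats and 748, 878, 659 and 1292 CPM in CNT-T rats. CNT-T rat 13 was 1.47-fold above the next rat, and the other 7 rats overlapped. The log2 fold change of -0.35 ± 0.19 became -0.12 without that rat. Hsph1 and Bag3 were singled out after their values were seen. Hsph1 (Hsp110), the nucleotide exchange factor that recycles Hsp70, ranged from 65.7 CPM in CNT-T rat 12 to 269.7 CPM in CNT-T rat 13, with CNT-7 rats at 67.7 to 142 CPM. Its log2 fold change of -0.54 ± 0.38 was -0.11 without CNT-T rat 13. Bag3, a co-chaperone that passes Hsp70 clients to autophagy, ranged from 12.6 to 35.6 CPM between the same rats, and its log2 fold change of 0.054 ± 0.27 ran from -0.14 without rat 12 to 0.38 without rat 13.

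Hspa8, the constitutive Hsp70 that folds new proteins and uncoats clathrin vesicles, did not share that order. CNT-7 rats had 107, 138, 103 and 119 CPM and CNT-T rats 168, 137, 105 and 126 CPM. The highest value was in CNT-T rat 1, the groups overlapped, and the log2 fold change was -0.20 ± 0.14. It was -0.072 without CNT-T rat 1 and -0.30 without CNT-T rat 12.

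The spread within groups put numbers on this. Over the 8361 genes with a mean of at least 10 CPM, the median SD of log2 CPM within a group was 0.14, and 95% of these genes lay below 0.42. The 14 cytosolic members had a median of 0.24 and the 15 ER chaperone members 0.17. Of the 42 members, 4 lay above the 95% point, namely Hspa1b (1.82), Hspb1 (1.34), Hsph1 (0.68) and Bag3 (0.46). Dnajb1 (0.19), Hspa8 (0.24) and Hsp90aa1 (0.32), also heat shock genes, lay below it.

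**Figure D2:**
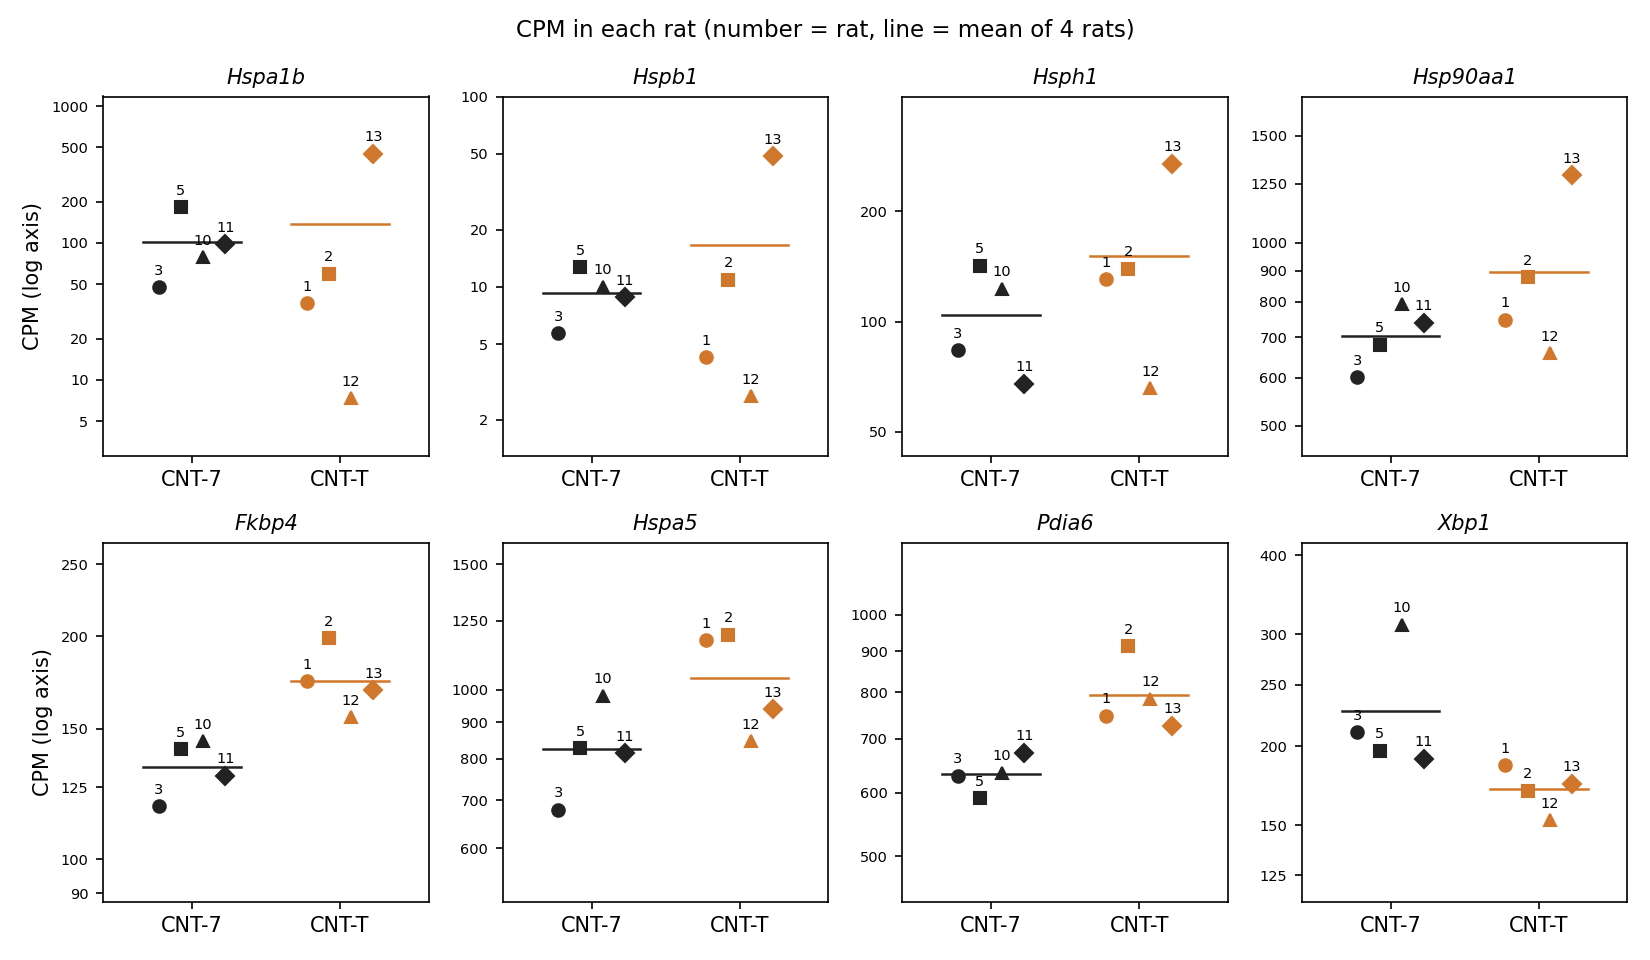
CPM of 8 members in each rat on a log axis, CNT-7 in black and CNT-T in orange, with the rat's number above each point and a line at the mean of 4 rats. In the top row CNT-T rat 13 is the highest of the 8 rats for Hspa1b, Hspb1, Hsph1 and Hsp90aa1, while in the bottom row the groups do not overlap for Fkbp4, Pdia6 and Xbp1 and overlap for Hspa5.

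A few values can be set beside the high Hspa1b, Hspb1, Hsph1, Hsp90aa1 and Bag3 of CNT-T rat 13. Dnajb1, also a heat shock gene, was highest in CNT-7 rat 5 (102 CPM), with 86.8 CPM in CNT-T rat 13. The summed immediate early genes of rat 13 (9 genes, most abundant Dusp1) stood at 372 CPM, within the 365 to 386 CPM of the other 3 CNT-T rats and below the 486 to 787 CPM of the CNT-7 rats. Between the groups, 7 of these 9 genes were called higher in CNT-7 and Egr1 was called lower. Neutrophil, B cell, T cell and mesothelial lists in rat 13 lay within the range of the other rats or below it. The part of the lower total count of this library in the result was not tested.

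Fkbp4 and Stip1 were the 2 of 14 cytosolic members called lower, beside 14.0% of all genes tested. Fkbp4 encodes FKBP52, an immunophilin that rides on Hsp90 and serves steroid receptor folding. It stood at 118, 141, 144 and 129.7 CPM in CNT-7 rats and 174, 199, 156 and 169 CPM in CNT-T rats. Every CNT-7 rat was below every CNT-T rat, and the log2 fold change was -0.39 ± 0.10 (means 133 ± 11.9 and 174 ± 18.0 CPM, SD, n = 4 each). The call was kept in all 12 alternative fits. Stip1, the HOP adaptor that hands clients from Hsp70 to Hsp90, had 99.9, 120.1, 128 and 119.5 CPM in CNT-7 and 163, 174, 117 and 148 CPM in CNT-T. CNT-T rat 12 lay inside the CNT-7 range. Stip1, chosen after its values were seen, had a log2 fold change of -0.36 ± 0.13, and the call was lost without any of CNT-7 rats 3, 5 and 11 or CNT-T rats 1, 2 and 13, at -0.38 to -0.29.

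The other cytosolic members were not called in that edgeR fit. Hsp90ab1, the constitutive Hsp90, had a log2 fold change of -0.21 ± 0.094 and was called lower by DESeq2 only. Ahsa1, the activator of the Hsp90 ATPase, had -0.19 ± 0.10, Hspa4 -0.11 ± 0.091 and Chordc1, another Hsp90 partner, -0.074 ± 0.15. The J-domain proteins Dnaja1 and Dnajb1, which load clients onto Hsp70, had 0.013 ± 0.15 and 0.18 ± 0.12. With a rat left out, Ahsa1 had -0.10 (without CNT-T rat 2) and Hspa4 -0.043 (without CNT-T rat 13). Chordc1 ran from -0.19 without CNT-T rat 12 to 0.021 without CNT-T rat 2. Dnaja1 ran from -0.11 without CNT-T rat 12 to 0.16 without CNT-T rat 13, and Dnajb1 had 0.092 without CNT-T rat 12. Hspa4l and Cryab did not pass the filter, with 0 to 9 and 0 to 5 counts per rat. Cell cycle genes moved in the same direction as Fkbp4 and Stip1: all 14 of that list were called lower in CNT-7, and their sum was 511 to 1164 CPM in CNT-7 rats and 1689 to 1893 CPM in CNT-T rats (most abundant Mki67). Their part in the result was not tested.

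The transcript of Hsf1, the master regulator, was not called. CNT-7 rats had 35.5, 39.2, 42.6 and 39.5 CPM and CNT-T rats 47.7, 42.0, 35.3 and 30.2 CPM, with a log2 fold change of 0.014 ± 0.13. The sign turned without CNT-7 rat 10 (-0.027) or CNT-T rat 12 (-0.030) or 13 (-0.090). CNT-T rat 13, highest for Hspa1b, Hspb1, Hsph1, Hsp90aa1 and Bag3, was the lowest for Hsf1. HSF1 is controlled mainly after translation, so its transcript is not a measure of its activity.

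The mitochondrial chaperones are Hspa9 (mortalin, the import motor) and the Hspd1 and Hspe1 pair, which form the folding chamber of the matrix. Hspd1 stood at 267, 239, 282 and 306 CPM in CNT-7 rats and 283, 359.8, 295 and 402 CPM in CNT-T rats. CNT-T rat 13 was again the highest, and CNT-T rats 1 and 12 overlapped the CNT-7 range. In log2 fold change, Hspd1 had -0.29 ± 0.13, Hspe1 -0.10 ± 0.13 and Hspa9 -0.086 ± 0.11. None of the 3 was called by edgeR with all rats, DESeq2 called Hspd1, and 1 had an unadjusted p under 0.05. Of all genes tested, edgeR called 13.9% higher and 14.0% lower, DESeq2 called 30.0%, and 33.2% had an unadjusted p under 0.05. Hspd1 was called lower without CNT-7 rat 11 (-0.35) or CNT-T rat 1 (-0.37), and had -0.19 without CNT-T rat 13. Hspe1 had -0.20 and -0.024 without CNT-T rats 1 and 2, and Hspa9 -0.15 and -0.00997 without CNT-T rats 1 and 13.

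The 15 ER chaperones and folding enzymes were all tested. They held a narrower band than the cytosolic group, from -0.33 ± 0.14 for Hspa5 to 0.23 ± 0.13 for Dnajb9, with 4 values above 0, 11 below and a median of -0.094. All 15 intervals lay within a 2-fold change. Dnajb9 was called higher without CNT-7 rat 11 (0.32), and had 0.14 without CNT-T rat 12. Their median ran from -0.15 without CNT-7 rat 10 to -0.062 without CNT-T rat 2, and was -0.10 without CNT-T rat 13.

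Hspa5 encodes BiP, the ER Hsp70 whose release from IRE1, ATF6 and PERK is the classical trigger of the UPR and whose transcript is its standard readout. It stood at 679, 829, 982 and 815 CPM in CNT-7 rats and 1173, 1194, 847 and 939.7 CPM in CNT-T rats. CNT-T rats 1 and 2 lay above all CNT-7 rats, while rats 12 and 13 lay inside their range. For BiP the log2 fold change was -0.33 ± 0.14, with a 95% interval of -0.65 to -0.011. It was not called in the fit of all 8 rats, and was called lower by DESeq2, without CNT-7 rat 10 (-0.42) and without CNT-T rat 12 (-0.42). BiP in CNT-T rat 13 was in the middle of the 8 values.

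Pdia6, a protein disulfide isomerase that also restrains IRE1 signalling, was the 1 of 15 ER chaperone members called in that edgeR fit. It was called lower, beside 14.0% of all genes tested. DESeq2 called 4 of the 15, beside 30.0% of all genes tested. Pdia6 had 630.0, 590.1, 635 and 673 CPM in CNT-7 and 748, 914, 786 and 727 CPM in CNT-T. The groups did not overlap, the log2 fold change was -0.33 ± 0.089 (95% interval -0.53 to -0.13), and the call was kept in all 12 alternative fits.

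The remaining oxidoreductase members were not called in that fit. Pdia4 had -0.31 ± 0.12 and was called lower by DESeq2, with upper-quartile normalization, without CNT-7 rat 11 (-0.38) and without CNT-T rat 13 (-0.38), while without CNT-T rat 2 it had -0.19. Pdia3 (ERp57, which works with the lectin chaperones) had -0.092 ± 0.079, and P4hb, the founding protein disulfide isomerase, had 0.0016 ± 0.077 with an interval of -0.17 to 0.17. Hsp90b1 (GRP94), the ER Hsp90 that matures Toll-like receptors and integrins, had -0.24 ± 0.11 and was called by DESeq2 only. The lectin chaperones Calr and Canx, which hold glycoproteins through the folding cycle, had -0.067 ± 0.11 and -0.077 ± 0.091. Hyou1, the exchange factor of BiP, had -0.18 ± 0.14, and the BiP co-chaperones Dnajb11, Dnajc3 and Sdf2l1 had -0.094 ± 0.10, 0.021 ± 0.094 and -0.13 ± 0.11. The secreted UPR products Manf and Creld2 had -0.12 ± 0.17 and 0.10 ± 0.18. Leaving out a rat turned the sign of Dnajc3, P4hb, Calr, Manf and Creld2. Without CNT-T rat 2, Hyou1 had -0.064, Hsp90b1 -0.16, Dnajb11 -0.037, Pdia3 -0.041 and Calr 0.033. Without CNT-T rat 12, Dnajc3 and P4hb had -0.026 and Creld2 -0.020. Without CNT-7 rat 10, Hyou1 had -0.28 and Sdf2l1 -0.23. Manf had 0.0094 without CNT-T rat 1, and Canx -0.025 without CNT-T rat 13.

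Of the 3 UPR regulators, 1 was called, and it was higher in CNT-7, beside 13.9% of all genes tested called higher. Xbp1 encodes the factor that IRE1 activates by splicing its messenger RNA, and it serves secretory cells and inflammatory macrophages. It was the 1 of 42 tested members called higher in CNT-7, at 210.3, 197, 311 and 191 CPM against 186, 169.9, 153 and 174 CPM in CNT-T. Every CNT-7 rat was above every CNT-T rat, by a small margin except in CNT-7 rat 10, which was 1.48-fold above the next. Its log2 fold change was 0.41 ± 0.15, and 0.22 without CNT-7 rat 10. The call was lost without that rat, and also without CNT-7 rat 3 (0.45) or CNT-T rat 2 (0.41), 12 (0.36) or 13 (0.42). Gene-level counts sum over transcripts, so spliced and unspliced Xbp1 were not separated.

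The sensors themselves were not called. Atf6, cut in the Golgi to free a transcription factor, had 126, 115, 148 and 137 CPM in CNT-7 and 117, 121, 106 and 128 CPM in CNT-T, with a log2 fold change of 0.15 ± 0.093. Ern1, which encodes IRE1, had 44.9, 44.8, 40.4 and 42.8 CPM and 48.2, 38.8, 45.8 and 47.1 CPM, with -0.057 ± 0.083. In both cases the groups overlapped and the 95% interval (-0.057 to 0.36 and -0.24 to 0.13) stayed inside a 2-fold change. Atf6 had 0.093 without CNT-7 rat 10. Ern1 had -0.024 without CNT-7 rat 10, and -0.023, -0.12 and -0.036 without CNT-T rats 1, 2 and 13.

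The 6 members of ER-associated degradation and translocation had log2 fold changes between -0.14 and 0.11. Herpud1, a strongly UPR-induced part of the degradation complex, had 69.0, 78.6, 64.0 and 61.3 CPM in CNT-7 rats and 78.2, 80.0, 51.0 and 44.1 CPM in CNT-T rats. CNT-T rat 13 had the lowest value of the 8, and CNT-T rats 1 and 2 lay at the top beside CNT-7 rat 5. For Herpud1 the log2 fold change was 0.11 ± 0.19, and -0.033 without CNT-T rat 13. Without CNT-7 rat 5 it was 0.032, and without CNT-T rats 1, 2 and 12 it was 0.22, 0.24 and 0.015. The ubiquitin ligase Syvn1 (HRD1) and its partner Sel1l had 0.11 ± 0.14 and 0.0012 ± 0.082. Edem1 and Derl1, which deliver failed glycoproteins to it, had 0.038 ± 0.064 and -0.068 ± 0.069, and the translocon subunit Sec61b had -0.14 ± 0.10. Syvn1 had 0.26 and 0.015 without CNT-T rats 1 and 13, and Sel1l -0.049 without CNT-7 rat 10. Edem1 had 0.012 without CNT-T rat 12, and Derl1 -0.035 without CNT-T rat 13. Sec61b had -0.21 and -0.059 without CNT-7 rats 3 and 5. None of the 6 was called by edgeR or DESeq2, and 0 had an unadjusted p under 0.05. Of all genes tested, edgeR called 13.9% higher and 14.0% lower, DESeq2 called 30.0%, and 33.2% had an unadjusted p under 0.05.

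Taking each rat in turn, the cytosolic and ER chaperones were highest most often in different animals. CNT-T rat 13 had the highest level of 7 of the 14 cytosolic members but of only 1 of the 15 ER chaperones (Canx). CNT-T rat 2 had the highest level of 11 of the 15 ER chaperones and of 5 cytosolic members, among them Hsp90ab1, Fkbp4 and Stip1. At the other end, CNT-T rat 12 was lowest for 7 cytosolic and 5 ER chaperones, and CNT-7 rat 3 for 5 and 6. The 2 classes thus differed in the rat most often highest, while CNT-T rat 12 and CNT-7 rat 3 were the rats most often lowest in both.

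Class scores, the mean over a class of log2 CPM minus each gene's mean over the 8 rats, show the same layout. The cytosolic score was 0.67 in CNT-T rat 13 and -0.60 in CNT-T rat 12, and between -0.29 and 0.17 in the 4 CNT-7 rats. Members did not share evenly in these 2 values. In CNT-T rats 13 and 12, Hspa1b had 2.71 and -3.21 and Hspb1 2.44 and -1.71. The other cytosolic members ran from 0.027 to 1.22 in rat 13 and from -0.81 to 0.035 in rat 12. The group means of the cytosolic score were -0.037 ± 0.19 in CNT-7 and 0.037 ± 0.53 in CNT-T (SD, n = 4), a difference far smaller than the spread in CNT-T. The ER chaperone score was 0.26 in CNT-T rat 2, -0.040 in CNT-T rat 13 and -0.18 in CNT-7 rat 3, with group means of -0.053 ± 0.11 and 0.053 ± 0.15. That difference, too, was smaller than the SD of either group. Leaving out each rat was added for the scores after the values were seen: the cytosolic difference of -0.074 turned to 0.14 without CNT-T rat 13 and was -0.29 without CNT-T rat 12. It was 0.0099 and -0.14 without CNT-7 rats 3 and 5, and -0.12 and -0.026 without CNT-T rats 1 and 2. The ER difference of -0.11 was -0.037 without CNT-T rat 2 and -0.063 without CNT-7 rat 3. The mitochondrial score peaked in CNT-T rat 13 (0.30) and rat 2 (0.22).

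**Figure D3:**
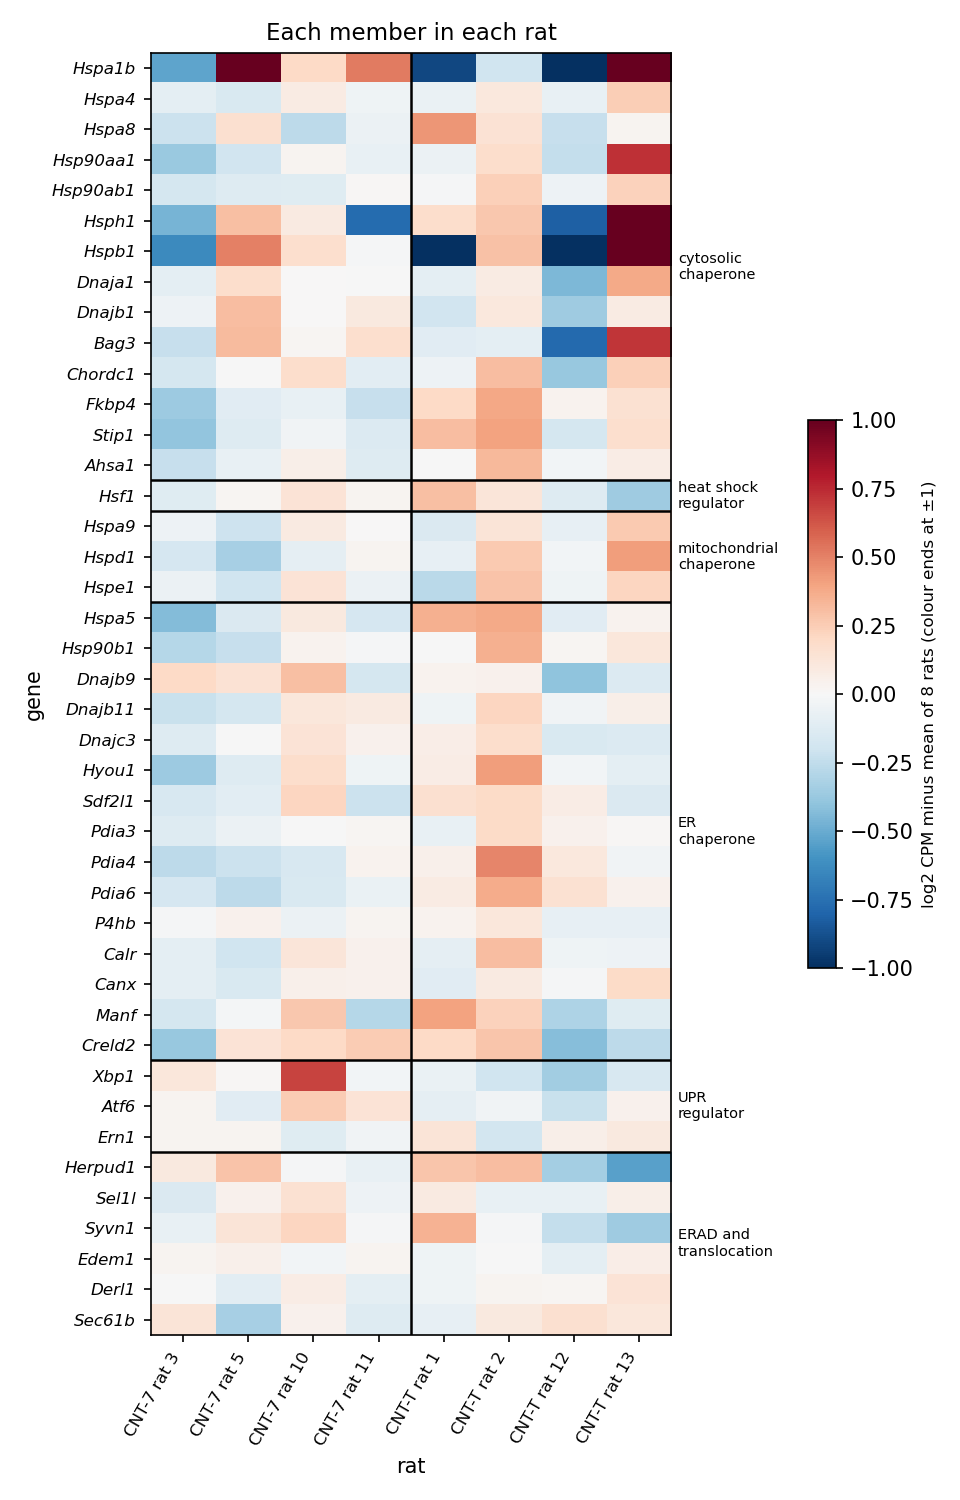
Log2 CPM of each of the 42 members in each rat minus the gene's mean over the 8 rats, red above and blue below, with colour ending at 1 unit either way and lines between classes and between CNT-7 and CNT-T. The column of CNT-T rat 13 is red for Hspa1b, Hspb1, Hsph1, Hsp90aa1 and Bag3 and pale for Dnajb1, Hspa8 and the ER chaperones. The column of CNT-T rat 2 is red for most ER chaperones.

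Beyond the members, 104 of 111 other genes of the same pathways were tested with edgeR's quasi-likelihood test and Benjamini-Hochberg adjustment over all genes. Of these, 9 were called higher in CNT-7 (13.9% of all genes tested were called higher) and 19 lower (14.0%). The class with most calls was the other ER chaperones and folding enzymes, with 3 called higher and 10 lower of 22, beside 13.9% and 14.0% of all genes tested. All 14 cell cycle genes and 5 of 9 macrophage markers were also called lower, with Cd14 called higher. Of 9 immediate early genes, 7 were called higher and 1 lower. The part of these lists in the result was not tested. Prdx4, the ER peroxiredoxin that consumes the hydrogen peroxide of disulfide formation, fell from 107, 97.0, 101 and 92.6 CPM in CNT-T to 67.3, 53.7, 44.6 and 58.6 CPM in CNT-7, a log2 fold change of -0.82 ± 0.12 (edgeR adjusted p = 0.00154) with 4 of 4 CNT-7 rats below all CNT-T rats. Dnajc10 (ERdj5), a reductase of the degradation pathway, and Fkbp14, a collagen-folding isomerase, also fell, with log2 fold changes of -0.34 ± 0.083 and -0.41 ± 0.11. In the other direction, Ero1a, the oxidase that drives disulfide formation and a hypoxia-inducible gene, rose with 158, 153, 224 and 133 CPM in CNT-7 against 115, 116, 107 and 126 CPM in CNT-T, a log2 fold change of 0.52 ± 0.15 (edgeR adjusted p = 0.0308; 4 of 4 CNT-7 rats above all CNT-T rats). Sdf2 (0.40 ± 0.074, edgeR adjusted p = 0.00529; 4 of 4 rats above) and Cnpy2 (0.19 ± 0.066) rose as well. Prdx4 and Ero1a thus moved in opposite directions. Of the 6 genes named here, 1 lost its call with a rat left out, Cnpy2 without CNT-7 rats 3 or 5 or CNT-T rats 2, 12 or 13 (0.15 to 0.20).

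Among the other cytosolic chaperones 3 of 26 were called higher and 4 lower, beside 13.9% and 14.0% of all genes tested. Dnajb2, a J-domain protein tied to the proteasome, rose (0.57 ± 0.13, edgeR adjusted p = 0.0131; 4 of 4 CNT-7 rats above all CNT-T rats), as did Unc45a (0.23 ± 0.072) and Dnajb6 (0.19 ± 0.072). St13, the Hip co-chaperone of Hsp70, fell (-0.45 ± 0.10, edgeR adjusted p = 0.0109; 4 of 4 CNT-7 rats below all CNT-T rats), as did Hspa14 (-0.38 ± 0.10) and the ubiquitin ligase Stub1 (-0.30 ± 0.067). The chaperonin TRiC, which folds actin and tubulin, had 8 of 8 subunits below 0 (5923 of all 12124 genes tested) and 4 called lower (14.0% of all genes), with Cct7 at -0.26 ± 0.077, Tcp1 at -0.24 ± 0.087 and Cct5 at -0.21 ± 0.073. The cell cycle list moved in the same direction, and its part in the result was not tested. Among the genes named here, calls were lost for Unc45a without CNT-7 rat 5 or CNT-T rats 2, 12 or 13 (0.18 to 0.23), Dnajb6 without CNT-7 rats 5, 10 or 11 or CNT-T rats 1, 2 or 12 (0.16 to 0.19) and Cct7 without CNT-7 rat 5 (-0.23). The same held for Tcp1 without CNT-7 rats 3, 5 or 10 or CNT-T rats 2, 12 or 13 (-0.25 to -0.19) and Cct5 without CNT-7 rats 3, 5 or 10 or CNT-T rats 2 or 12 (-0.21 to -0.17).

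In ER-associated degradation and translocation 3 of 30 were called higher, Herpud2 (0.34 ± 0.073, edgeR adjusted p = 0.00962; 4 of 4 CNT-7 rats above all CNT-T rats), Faf2 (0.18 ± 0.066) and Selenos (0.17 ± 0.060), and 1 lower, the translocon-associated Ssr1 (-0.27 ± 0.076), beside 13.9% and 14.0% of all genes tested. The UPR regulators outside the members, among them Eif2ak3 (PERK), Atf4 and Ddit3 (CHOP), gave 0 calls of 8 by edgeR with all rats and by DESeq2, and 0 had an unadjusted p under 0.05. Ddit3 had a log2 fold change of -0.14 ± 0.18 and Atf4 0.057 ± 0.091. The 8 mitochondrial genes gave 0 calls by either tool and 0 at an unadjusted p under 0.05. The 2 heat shock regulators (Hsf2 and Hsbp1) gave 0 calls by either tool and 1 at an unadjusted p under 0.05. Of all genes tested, DESeq2 called 30.0%, and 33.2% had an unadjusted p under 0.05. With a rat left out, edgeR called Ppp1r15a higher without CNT-7 rat 3 (0.48) and Atf6b without CNT-T rat 1 (0.26). Mitochondrial Hscb was called higher without CNT-7 rat 11 (0.31), and Hsf2 lower without CNT-T rat 1 (-0.37). In ER-associated degradation and translocation, Ssr2 was called lower without CNT-7 rat 3 or CNT-T rat 13 (-0.31 each). Spcs2 was called lower without CNT-7 rat 10 (-0.22), and Selenok higher without CNT-7 rat 11 (0.25). In the other classes, Hspb6 and Cct2 were called lower and Dnajb4 higher, each only with a rat left out. Fkbp7 and Ppib were called lower with a rat left out and also by DESeq2 on all 8 rats. Fkbp7 was called lower as well by edgeR with at least 10 counts in every rat. Of the 19 genes named here by rule, 11 kept their call with each of the 8 rats left out in turn. In ER-associated degradation the call was lost for Faf2 without CNT-7 rats 3, 5, 10 or 11 or CNT-T rats 1, 2 or 12 (0.15 to 0.19) and Selenos without CNT-7 rats 3, 5 or 10 or CNT-T rats 2, 12 or 13 (0.14 to 0.18).

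Promoters were searched for the elements of both programmes. RefSeq promoters of the rat build GRCr8, 250 bases before to 50 after each start, matched 34 of the 44 symbols, with Hspa1b and Hsp90aa1 among the 10 without a match. Members were counted by symbol, a match in any promoter of the symbol being enough. The shares of all promoters count each promoter by itself, so the 2 are not in the same unit. The heat shock element bound by HSF1 was searched on both strands as the pair GAANNTTC or TTCNNGAA, and as a triple, the pair followed after 2 more bases by another GAA or TTC. The pair was found in 10 of 13 cytosolic, 3 of 3 mitochondrial and 1 of 18 ER-side promoters (ER chaperones, UPR regulators and degradation), beside 15.9% of all 33469 promoters. The triple was found in 4 cytosolic promoters (Hspa8, Hsph1, Dnaja1 and Chordc1) and in those of Hspd1 and Hspe1, beside 0.798% of all. The windows of Hspd1 and Hspe1, which lie head to head, share 211 bases.

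The ER stress element was searched as CCAAT and CCACG 9 bases apart. It was found in 7 of 18 ER-side promoters (Hspa5, Hsp90b1, Dnajc3, Calr, Canx, Creld2 and Xbp1) and in none of the 13 cytosolic or 3 mitochondrial windows, beside 0.0657% of all promoters, which is 22 of 33469. ER stress element II, ATTGG and CCACG 1 base apart, was found in Dnajb11, Hyou1 and Herpud1, beside 0.0508% of all. The core of the UPR element, TGACGTG, was found in Hsph1, Bag3, Hspa5 and Hyou1, beside 1.81%. A match is a run of letters and not a shown binding site.

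The promoters of the genes with the widest spread between rats among those matched (Hsph1 and Hspb1) and of Fkbp4, called lower, are shown for the heat shock element, as the 250 bases before the start in GRCr8, 5′ to 3′ on the gene's strand. Capitals mark heat shock element pairs, and in Hsph1 also the UPR element core on the opposite strand, the first run of capitals. Hsph1 lies at chr12:10427118-10427367 (+ strand), Hspb1 at chr12:26432302-26432551 (- strand) and Fkbp4 at chr4:163397919-163398168 (- strand). Hsph1 held 3 pairs, 2 of them joined in a triple, Hspb1 held 2 and Fkbp4 1.
Hsph1: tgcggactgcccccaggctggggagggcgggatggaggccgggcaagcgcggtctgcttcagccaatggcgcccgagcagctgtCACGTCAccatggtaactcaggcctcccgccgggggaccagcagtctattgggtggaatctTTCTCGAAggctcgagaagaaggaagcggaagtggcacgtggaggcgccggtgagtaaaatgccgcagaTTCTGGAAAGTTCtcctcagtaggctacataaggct
Hspb1: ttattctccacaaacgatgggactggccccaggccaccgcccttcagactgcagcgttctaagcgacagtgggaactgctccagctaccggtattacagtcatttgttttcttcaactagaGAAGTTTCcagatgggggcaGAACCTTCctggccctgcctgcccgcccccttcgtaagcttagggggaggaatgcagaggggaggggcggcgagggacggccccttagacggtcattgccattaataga
Fkbp4: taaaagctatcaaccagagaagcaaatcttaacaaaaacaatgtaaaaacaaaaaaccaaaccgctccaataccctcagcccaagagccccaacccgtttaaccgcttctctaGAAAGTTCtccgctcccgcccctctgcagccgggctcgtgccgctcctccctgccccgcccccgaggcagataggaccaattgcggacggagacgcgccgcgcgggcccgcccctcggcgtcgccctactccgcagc

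The promoters of Hspa5, the standard readout of the UPR, and of Xbp1, called higher, are shown for the ER stress element. Capitals mark that element, and in Hspa5 also the UPR element core, the first run of capitals. Hspa5 lies at chr3:38452766-38453015 (+ strand) and Xbp1 at chr14:84604373-84604622 (+ strand). Both held 1 copy of the element. The genes that share it had values of either sign, Xbp1 with a log2 fold change of 0.41 and Hspa5 with -0.33, the latter not called.
Hspa5: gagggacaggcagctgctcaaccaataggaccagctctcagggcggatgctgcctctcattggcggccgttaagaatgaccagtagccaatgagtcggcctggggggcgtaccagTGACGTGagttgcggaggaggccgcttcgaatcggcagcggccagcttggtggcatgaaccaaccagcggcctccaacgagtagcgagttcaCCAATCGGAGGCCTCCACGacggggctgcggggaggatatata
Xbp1: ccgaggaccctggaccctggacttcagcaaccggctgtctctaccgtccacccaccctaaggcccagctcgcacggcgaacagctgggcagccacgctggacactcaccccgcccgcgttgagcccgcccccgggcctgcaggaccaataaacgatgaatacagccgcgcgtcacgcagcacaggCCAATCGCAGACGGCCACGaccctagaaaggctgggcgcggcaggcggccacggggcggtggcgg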

How the data were processed

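Macrophage RNA from 8 rats was sequenced as stranded, paired-end mRNA libraries. The authors deposited estimated counts per gene, made in the ARMOR workflow with Salmon on the Rnor_6.0 transcripts and summed over transcripts (version not given in the sources used here). The values were whole numbers and were used as rounded counts. Genes were compared with edgeR 4.0.16 in R 4.3.3 (quasi-likelihood test, TMM normalization, filterByExpr at 10 counts and 15 in total, Benjamini-Hochberg adjustment over 12124 genes, threshold 0.10). The fit was tested on simulated data. SEs were taken from the fold change and its F statistic, and intervals are 95%. Scores used a prior count of 2. DESeq2 1.42.0, other filters, upper-quartile normalization and leaving out each rat were alternatives. The members and lists were chosen with earlier results of these data known. Values in every rat are given for fixed genes and for up to 4 called, non-overlapping members per class. Of the other pathway genes, up to 3 per class and direction are named, by size of change at a mean of at least 1 CPM. Protein sequences were not used here.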

Additional observations from a re-analysis of the deposited data

Results flagged for a closer look

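Within groups of 4 rats, a single rat stood far from the other 3 for 3 results, out of 96 groups examined (42 members and 6 class scores in each particle). Chance alone would flag about 1 in 20 groups, or 4.8 here. Whether that share holds for values on the CPM scale was not tested. Hspa1b was highest in CNT-T rat 13 at 448 CPM, while its 3 group mates had 7.32 to 59.6 CPM, and the gap was 0.881 of the group's range. Calr was highest in CNT-T rat 2 at 1690.3 CPM, against 1284 to 1326 CPM, with a gap of 0.897 of the range. Xbp1 was highest in CNT-7 rat 10 at 311 CPM, against 191 to 210.3 CPM, with a gap of 0.838 of the range. In log2 CPM minus the gene's mean over all rats, Hspa1b had 2.71, -0.20, -0.91 and -3.21 in CNT-T rats 13, 2, 1 and 12. Xbp1 had 0.68, 0.11, 0.013 and -0.029 in CNT-7 rats 10, 3, 5 and 11. Calr had 0.31, -0.042, -0.052 and -0.089 in CNT-T rats 2, 12, 13 and 1. On that log2 scale the gaps of Hspa1b and Xbp1 were under the cutoff, and that of Calr was above it. The causes were not tested.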

How the results depend on the processing

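The number of genes called in all, 3383, was 2578 to 3515 with a rat left out and 2507 to 3633 under the other alternatives. The count of members called higher, 1, was 2 with no filter on low counts (Hspa4l was added, at 0 to 9 counts per rat), 0 at an adjusted p under 0.05, and 0 to 2 with a rat left out. Members called lower, 3, became 8 with DESeq2 and 2 to 4 with a rat left out. Other pathway genes called higher, 9, became 5 with no filter, 4 at an adjusted p under 0.05 and 4 to 9 with a rat left out. Those called lower, 19, became 9 at 0.05 and 9 to 18 with a rat left out. Both class medians stayed below 0 in every alternative, and the score differences of -0.074 and -0.11 were -0.069 and -0.091 with the median over genes and ran from -0.29 to 0.14 and -0.15 to -0.037 with a rat left out, an alternative chosen after seeing the data. Leaving out a rat turned the sign of 13 of the 42 members, none of them called. Of those in the naming rule, the log2 fold change ran from -0.89 to 1.56 for Hspa1b, -1.19 to 0.64 for Hspb1, -0.090 to 0.13 for Hsf1 and -0.033 to 0.24 for Herpud1. The cause was not tested. Of the other genes in that rule, none changed sign under the alternatives run. Replicate numbers were not shared between the groups, so no pairing was fitted.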
